A study of Mus with 6 samples.

Results

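The genes described here encode the machinery that makes ribosomes and the subunits of the 3 nuclear RNA polymerases. They were chosen by name, from a set of symbol patterns for polymerase subunits (Polr1, Polr2 and Polr3), nucleolar and ribosomal RNA processing proteins (Nop, Nol, Utp, Rrp, Tsr), the RNA exosome (Exosc) and single factors such as Fbl, Nhp2, Pes1 and Ddx21. The patterns use no expression value, but they were set with earlier results of these data known. Of the 11659 genes of the deposited table, 92 carried such a name. Of these, 64 stood in the rows used here, a range of low and a range of middle Ensembl identifier numbers that were picked from earlier work on whether counts and gene labels of the table line up, and these 64 genes make up the set. All 64 passed the filter on low counts, with 133 to 15156 reads per gene and sample. The remaining 28 genes of the patterns, among them Myc, Polr1c, Ubtf, Rrn3, Npm1 and Heatr1, stood outside these rows and were not used. A further 16, among them Polr1a, Ncl, Dkc1, Nop56 and Bop1, were not analysed here.

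A ribosome begins in the nucleolus, where RNA polymerase I copies the ribosomal DNA into a long precursor RNA. Small nucleolar ribonucleoproteins (snoRNPs) modify this precursor, a large complex called the small subunit processome cleaves and folds a part of it, other factors assemble the large subunit, and the exosome trims and degrades the leftover RNA. RNA polymerase III makes the remaining ribosomal RNA and the transfer RNAs, and RNA polymerase II makes the messenger RNAs of all the proteins involved. Output of the pathway is closely tied to cell growth and division.

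RNA was sequenced from chondrocytes, the cells of cartilage, of 12-week-old C57BL/6J mice. Of the 6 samples, 3 were wild type (WT) and 3 were Sirt6 cKO, a conditional knockout of Sirt6. Sirt6 encodes a nuclear deacylase of the sirtuin family. The Sirt6 cKO mice carried Col2a1-CreERT2 with Sirt6 flox/flox, so that a tamoxifen-inducible Cre recombinase driven by the Col2a1 promoter removed the floxed gene in cells that use this promoter. The study names WT and Sirt6 flox/flox mice as separate groups and gave tamoxifen to both, and to Sirt6 cKO mice, ahead of joint surgery. Whether and when the mice of the sequenced samples received it is not given in the sources used here. The study counts 3 control and 3 knockout samples of mouse chondrocytes without saying that each came from its own mouse, so p-values measure the spread between these samples only. The study's methods describe chondrocytes taken from knee cartilage and grown for a first passage in culture.

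Total counts lay between 25726958 and 30156935 per sample. Sirt6 itself (chr10:81621785-81627797, minus strand, GRCm38) had 427, 338 and 362 CPM (counts per 1000000 counts of the library, scaled by the TMM factors of edgeR) in WT replicates 1, 2 and 3 and 36.2, 28.7 and 22.3 CPM in the Sirt6 cKO replicates, so that it fell by 3.69 ± 0.21 (SE) on the log2 scale (quasi-likelihood test of edgeR, adjusted p = 8e-06). Of 13 chondrocyte markers, 5 could be tested and 4 were higher in Sirt6 cKO (Sox9, Comp, Col11a1 and Ucma), with summed levels of 199 to 217 CPM in WT and 393 to 492 CPM in Sirt6 cKO, and Col2a1 and Acan were among those not analysed here. Of 10 synovial fibroblast markers, 8 were tested and 5 were higher (Col1a1, Col1a2, Pdgfra, Dcn and Lum). Pdpn, Has1 and Thy1 did not pass the test, with log2 fold changes of -0.36, -0.26 and 0.09. Sums were 11210 to 11480 CPM in WT, mostly Col1a1 and Col1a2, and 36200 to 41740 CPM in Sirt6 cKO. Ucma and Lum had 6 reads or fewer in each WT sample, and passed the filter on low counts through Sirt6 cKO alone. The leukocyte marker Cd68 lay between 0.205 and 1.73 CPM and the osteoblast gene Runx2 between 47.3 and 79.1 CPM, neither past the threshold, and no endothelial or muscle marker was testable. Of the 14 proliferation genes, 8 were tested and all 8 were lower, against 24.3% of all genes tested. Their median log2 fold change was -2.74, with sums of 2482 to 3095 CPM in WT and 308.0 to 368 CPM in Sirt6 cKO. The part that these other genes, and the makeup of the samples, had in the values below was not tested, and fewer cells of a type cannot be told apart from less RNA per cell. WT replicate 1 stood apart, with correlations of 0.969 and 0.971 of its log2 CPM across genes with those of the other WT samples, which correlated at 0.993 with each other. Sirt6 cKO replicate 3 stood apart for many of the genes described here, as set out further on.

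Genes of ribosome production were lower in Sirt6 cKO more often than higher. Of the 64 genes, 34 (53.1%) fell at an adjusted p under 0.05 and 1 (1.56%), Polr3gl, rose, and the other 29 did not pass the test. Over all 11246 genes tested, 24.3% fell and 22.5% rose by the same rule, and over the tested rows with identifiers in the same ranges, 25.8% fell and 24.0% rose. By more than 2-fold, 12 of the 64 fell (7.15% of all genes tested) and 0 rose (8.72% of all genes tested). The median log2 fold change over the 64 genes was -0.57, against 0.00 over all genes tested, and single genes ranged from -2.47 to 0.74. In 36 of the 64 genes all 3 Sirt6 cKO samples lay below all 3 WT samples (30.6% of all genes tested), in 4 they lay above (30.2% of all genes tested), and in 24 the genotypes overlapped (4402 of all 11246 genes tested). Of the 34 genes that fell, 32 had no overlap between genotypes, the exceptions being Polr2b and Utp20. A call and a lack of overlap rest on the same values, so they are not independent. Leaving out 1 sample at a time left 21 to 36 genes lower, with 21 without Sirt6 cKO replicate 1 and 22 without Sirt6 cKO replicate 2. Over all genes tested, 1927 and 1903 fell without these samples, against 2736 with all samples. With the replicate number as a block, 38 fell and 2 rose, the second being Gnl2, and 2868 of all genes tested fell. With WT replicate 1 and Sirt6 cKO replicate 3 both left out, a setting chosen after the data were seen, 48 fell and 3 rose. The count over all genes tested also grew in that setting, from 2736 to 3769 that fell.

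**Figure D1:**
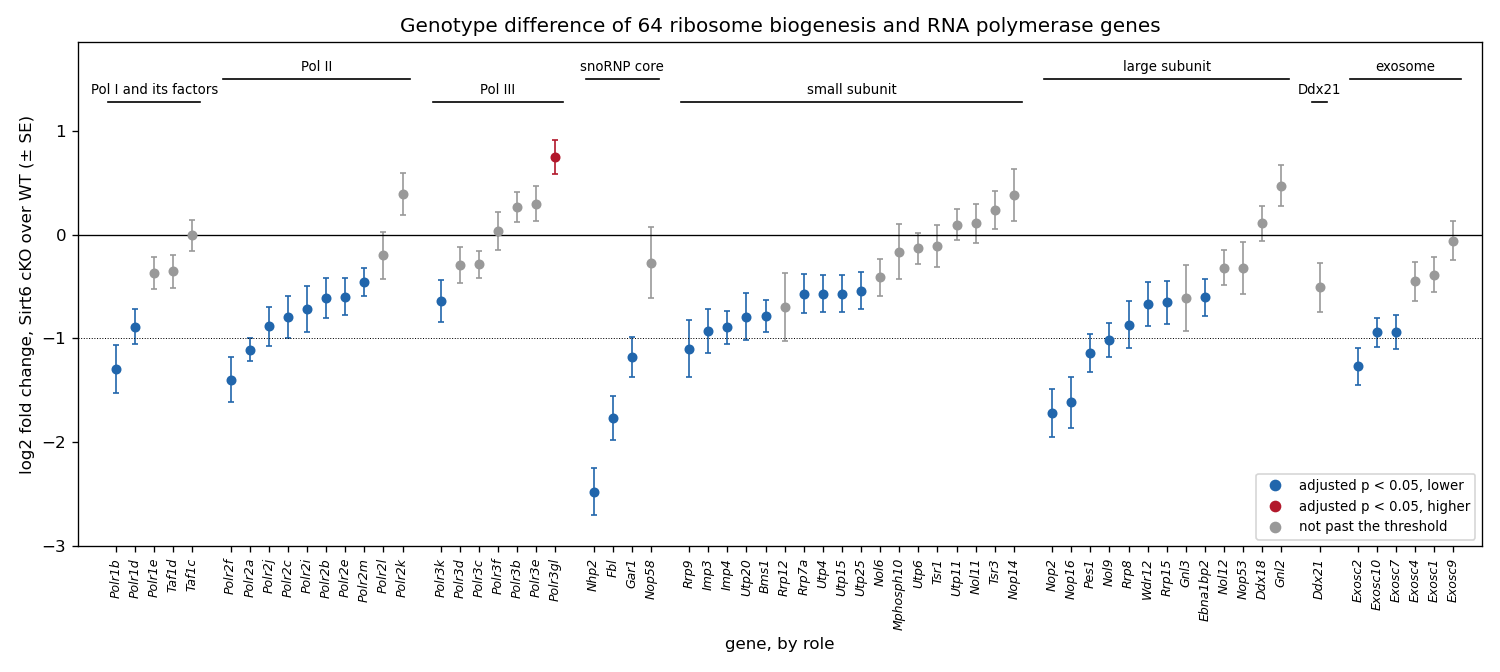
Log2 fold change of Sirt6 cKO over WT for each of the 64 genes, arranged by role and by size, with the standard error of edgeR's fit as bars and a dotted line at a 2-fold decrease. The 34 genes in blue fell, Polr3gl in red rose, and the 29 in grey did not pass an adjusted p of 0.05. The snoRNP gene Nhp2 lies lowest at -2.47, and the 7 Pol III genes run from -0.64 (Polr3k) to 0.74 (Polr3gl), with a median of 0.03.

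The core proteins of the snoRNPs carry the guide RNAs that direct chemical changes of ribosomal RNA. Of the 4 snoRNP core genes, 3 fell, each by more than 2-fold, and the median log2 fold change of the 4 was -1.47. Nhp2 (chr11:51619735-51623714, plus strand) encodes a protein of the H/ACA class of snoRNPs, which convert uridine to pseudouridine, and of telomerase. It had 298, 168 and 191 CPM in WT replicates 1, 2 and 3 and 39.4, 34.7 and 44.2 CPM in Sirt6 cKO. The Sirt6 cKO samples were all well below the lowest WT sample, and the mean fell from 219 ± 69.4 to 39.4 ± 4.75 CPM (SD, n = 3 each). This was a 5.55-fold decrease, with a log2 fold change of -2.47 ± 0.23 and an adjusted p of 8.01e-05 by edgeR. The span of Nhp2 overlaps that of Rmnd5b, and since the strand setting of the counting is not given in the sources used here, reads of the overlap could belong to either gene.

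Fbl (chr7:28169748-28179269, plus strand) encodes fibrillarin, the methyltransferase of the C/D class of snoRNPs. Its WT samples had 66.3, 39.9 and 50.3 CPM and its Sirt6 cKO samples 16.3, 12.6 and 17.1 CPM, with no overlap. It fell by 1.77 ± 0.21 on the log2 scale (adjusted p = 0.000343, edgeR), and the annotation holds a pseudogene copy of Fbl that could share reads. Gar1 (chr3:129824912-129831396, minus strand), a second H/ACA protein, had 84.4, 64.02 and 67.2 CPM in WT and 29.9, 25.9 and 39.4 CPM in Sirt6 cKO. These did not overlap either, and the log2 fold change was -1.18 ± 0.19 (adjusted p = 0.00142, edgeR).

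Nop58 (chr1:59685006-59711510, plus strand), a scaffold protein of the same C/D class as fibrillarin, had 154, 244 and 235 CPM in WT and 135, 107 and 284 CPM in Sirt6 cKO. Here the third Sirt6 cKO replicate was the highest of all 6 samples and the others the lowest, so that the genotypes overlapped. The log2 fold change was -0.27 ± 0.34 and did not pass the test (adjusted p = 0.545, edgeR). Without Sirt6 cKO replicate 3 it was -0.79 with an adjusted p of 0.0358. The annotation places the snoRNA genes Snord11 and Snord70 inside Nop58.

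**Figure D2:**
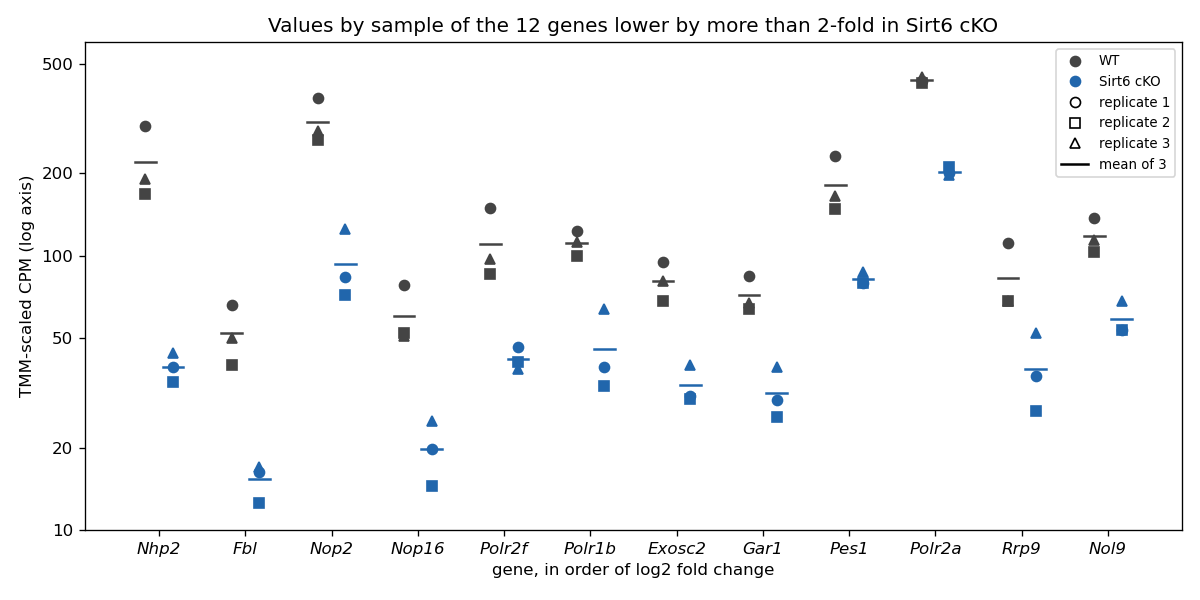
TMM-scaled CPM (log axis) in each sample of the 12 genes that fell by more than 2-fold, in order of log2 fold change, with WT in grey, Sirt6 cKO in blue, marker shapes for replicates 1 to 3 and a line at the mean of the 3. In every one of the 12 genes the highest Sirt6 cKO sample lies below the lowest WT sample, and WT replicate 1 is the highest WT sample in all but Polr2a.

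Among the factors of large subunit assembly, 8 of 13 genes were lower, 4 of them by more than 2-fold, and a median log2 fold change of -0.65. Nop2 (chr6:125131883-125144753, plus strand) encodes a methyltransferase that modifies a cytosine of the large ribosomal RNA. It had 376, 264 and 284 CPM in WT and 83.4, 72.0 and 125 CPM in Sirt6 cKO, without overlap. Its log2 fold change was -1.72 ± 0.23 (adjusted p = 0.000569, edgeR), a 3.29-fold decrease. Nop16 (chr13:54584185-54590090, minus strand), a nucleolar assembly factor, had 78.5, 52.4 and 50.9 CPM in WT and 19.8, 14.5 and 25.1 CPM in Sirt6 cKO. All Sirt6 cKO samples were below all WT samples, and the log2 fold change was -1.62 ± 0.24 (adjusted p = 0.00105, edgeR).

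Pes1 and Wdr12 encode partners in the PeBoW complex, which acts in the processing of the large subunit RNA, and the gene of their partner, Bop1, was not analysed here. Pes1 (chr11:3963975-3980004, plus strand) had 231, 148 and 165 CPM in WT and 79.3, 79.7 and 87.6 CPM in Sirt6 cKO, with no overlap. It fell by 1.14 ± 0.18 on the log2 scale (adjusted p = 0.00127, edgeR). Wdr12 (chr1:60076868-60098645, minus strand) was even across WT at 65.7, 62.5 and 65.0 CPM and had 38.8, 28.9 and 54.1 CPM in Sirt6 cKO. Each Sirt6 cKO sample was below WT, the third the least so, and the log2 fold change was -0.67 ± 0.21 (adjusted p = 0.0301, edgeR). This call was lost without WT replicate 3 (adjusted p = 0.0662), without Sirt6 cKO replicate 1 (0.0945) and without Sirt6 cKO replicate 2 (0.0891).

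Nol9 (chr4:152039321-152061494, plus strand), a polynucleotide kinase of precursor RNA processing, had 138, 103 and 114 CPM in WT and 53.7, 53.7 and 68.3 CPM in Sirt6 cKO. The genotypes did not overlap, and the log2 fold change was -1.01 ± 0.16 (adjusted p = 0.00147, edgeR). Rrp8, Rrp15 and Ebna1bp2 also fell, with log2 fold changes of -0.87, -0.65 and -0.60 (adjusted p = 0.0139, 0.0286 and 0.0213). All 3 of these calls were lost without Sirt6 cKO replicate 1 or 2, those of Rrp15 and Ebna1bp2 also without WT replicate 3, and that of Rrp15 also without WT replicate 2. The remaining 5 large subunit genes did not pass the test. Of these, Gnl3 (nucleostemin), Nol12 and Nop53 had log2 fold changes of -0.61, -0.32 and -0.32, and Ddx18 and Gnl2 had 0.11 and 0.47. Gnl2, a GTPase of nuclear export of the large subunit, was 65.8, 95.7 and 93.9 CPM in WT and 101, 108 and 146 CPM in Sirt6 cKO, above WT in every sample, but with an adjusted p of 0.0788 (0.0256 with the replicate block).

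Of the 18 genes of small subunit processing, 9 fell and 0 rose, with a median log2 fold change of -0.55, and 1 fell by more than 2-fold. That gene, Rrp9 (chr9:106475963-106485424, plus strand), encodes a protein that binds the U3 snoRNP, the guide particle of the first cleavages. It had 112, 68.2 and 68.4 CPM in WT and 36.3, 27.1 and 52.3 CPM in Sirt6 cKO, without overlap. It fell by 1.10 ± 0.28 on the log2 scale (adjusted p = 0.0112, edgeR). Of the MPP10 complex, a module of the processome, Imp3 and Imp4 fell by 0.93 and 0.89 on the log2 scale (adjusted p = 0.00742 and 0.00239), and Mphosph10 was at -0.17 (adjusted p = 0.635). The GTPase gene Bms1 fell by 0.78 on the log2 scale (adjusted p = 0.00344), and Utp4, Utp15, Utp25 and Rrp7a had log2 fold changes of -0.54 to -0.57 (adjusted p between 0.0272 and 0.0329). These 4 calls were lost without Sirt6 cKO replicate 1 or 2, those of Utp4, Utp15 and Utp25 also without WT replicate 3, those of Utp15 and Utp25 also without WT replicate 2, and that of Rrp7a also without Sirt6 cKO replicate 3 and with upper-quartile factors.

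Utp20, a large scaffold of the processome, was lower in the fit although its genotypes overlapped. It had 164, 246 and 257 CPM in WT and 108, 110 and 168 CPM in Sirt6 cKO, where the third replicate lay just above WT replicate 1. The log2 fold change was -0.79 ± 0.23 (adjusted p = 0.0205, edgeR), and the call was lost without WT replicate 2 or 3 and without Sirt6 cKO replicate 1 or 2. The 9 genes that did not pass the test had log2 fold changes from -0.70 (Rrp12) to 0.38 (Nop14), and of these Rrp12, Nol6, Mphosph10, Utp6 and Tsr1 were below 0 and Utp11, Nol11, Tsr3 and Nop14 above 0. Ddx21, an RNA helicase that acts in both RNA polymerase I transcription and RNA processing, had 401, 470 and 501 CPM in WT and 260, 242 and 462 CPM in Sirt6 cKO. Its log2 fold change was -0.51 ± 0.24 with an adjusted p of 0.111 by edgeR, and 0.0144 with the replicate block.

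The RNA exosome is a ring of subunits with attached nucleases that trims precursor RNA from its 3′ end. Of 6 exosome genes, 3 fell and 0 rose, with a median log2 fold change of -0.69. Exosc2 (chr2:31670715-31681350, plus strand), a subunit of the cap of the ring, had 94.8, 68.3 and 80.6 CPM in WT and 30.95, 30.2 and 40.0 CPM in Sirt6 cKO. No sample crossed between the genotypes, and the log2 fold change was -1.27 ± 0.18 (adjusted p = 0.000667, edgeR). Exosc10 (chr4:148558429-148582401, plus strand), the nuclear exonuclease of the complex, had 128, 105 and 109 CPM in WT and 56.5, 54.8 and 66.9 CPM in Sirt6 cKO. It fell by 0.94 ± 0.14 on the log2 scale (adjusted p = 0.00113, edgeR), likewise without overlap. Exosc7, a ring subunit, fell by 0.94 on the log2 scale (adjusted p = 0.00196), whereas Exosc4, Exosc1 and Exosc9 had log2 fold changes of -0.45, -0.39 and -0.06 and did not pass the test with all samples. Exosc4 passed with the replicate block (adjusted p = 0.0404) and without WT replicate 2, and Exosc1 without Sirt6 cKO replicate 3 (adjusted p = 0.0293). With WT replicate 1 and Sirt6 cKO replicate 3 both left out, Exosc1 and Exosc9 passed (adjusted p = 0.000446 and 0.00533). The span of Exosc9 overlaps that of Ccna2, a proliferation gene that fell by 2.22 on the log2 scale.

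RNA polymerase I and its initiation factors were represented by 5 genes, of which 2 fell. Polr1b (chr2:129100995-129126594, plus strand) encodes the second largest subunit, and the gene of the largest, Polr1a, was not analysed here. It had 124, 99.8 and 112 CPM in WT and 39.2, 33.7 and 63.98 CPM in Sirt6 cKO. The genotypes were apart by more than the spread within either, and the log2 fold change was -1.29 ± 0.24 (adjusted p = 0.00252, edgeR). Polr1d (chr5:147077050-147111361, plus strand), a subunit that RNA polymerases I and III share, had 190, 130.0 and 140 CPM in WT and 88.7, 79.3 and 80.7 CPM in Sirt6 cKO. It fell by 0.89 ± 0.17 on the log2 scale (adjusted p = 0.00298, edgeR), without overlap.

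The other subunit, Polr1e, and the 2 subunits of selectivity factor SL1, which places RNA polymerase I on the ribosomal DNA promoter, did not pass the test. Polr1e had 26.9, 24.1 and 23.9 CPM in WT and 18.5, 17.4 and 22.01 CPM in Sirt6 cKO, lower in every Sirt6 cKO sample, and its log2 fold change was -0.37 ± 0.15 (adjusted p = 0.0718, edgeR, and 0.0452 without Sirt6 cKO replicate 3). Taf1d had 35.9, 45.5 and 45.6 CPM in WT and 29.9, 31.4 and 38.1 CPM in Sirt6 cKO, where the third replicate overlapped WT, and its log2 fold change was -0.35 ± 0.16 (adjusted p = 0.0971, and 0.0140 without WT replicate 1). Taf1c had 44.99, 34.1 and 34.5 CPM in WT and 36.3, 39.7 and 37.1 CPM in Sirt6 cKO. Its genotypes overlapped fully, and its log2 fold change was -0.01 ± 0.15 (adjusted p = 0.979), with a positive sign under the other scalings.

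Among the RNA polymerase II genes, 8 of 10 fell and 0 rose, 2 of them by more than 2-fold, with a median log2 fold change of -0.66. Polr2a (chr11:69733997-69758637, minus strand), the largest subunit, which carries the catalytic site and the C-terminal repeat domain, was the most even gene of these. It had 435, 428 and 447 CPM in WT and 200.3, 211 and 197 CPM in Sirt6 cKO. The 6 values formed a narrow group per genotype, with means of 437 ± 9.62 and 203 ± 7.51 CPM (SD, n = 3 each), and it fell by 1.11 ± 0.11 on the log2 scale (adjusted p = 0.000129, edgeR). Polr2f (chr15:79141351-79151774, plus strand), a small subunit shared by all 3 polymerases, had 150, 85.8 and 97.3 CPM in WT and 46.6, 41.1 and 38.6 CPM in Sirt6 cKO. It had the highest WT level per length of the 64 genes, 204 CPM per kb of exon. It fell by 1.40 ± 0.21 on the log2 scale (adjusted p = 0.00113, edgeR), without overlap between genotypes.

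Polr2b (chr5:77310147-77349324, plus strand), the second largest subunit, had 127, 188 and 202 CPM in WT and 113, 127 and 98.8 CPM in Sirt6 cKO. Sirt6 cKO replicate 2 was level with WT replicate 1, so the genotypes touched, and the span of the gene overlaps those of Igfbp7 and Noa1. The log2 fold change was -0.61 ± 0.19 (adjusted p = 0.0282, edgeR), and the call was lost without WT replicate 2, without WT replicate 3 and without Sirt6 cKO replicates 1 or 3 (adjusted p of 0.0815, 0.108, 0.0839 and 0.105) and with total counts or upper-quartile factors as scaling (0.056 and 0.0506). Polr2j, Polr2c, Polr2i and Polr2e had log2 fold changes of -0.88, -0.79, -0.71 and -0.60 (adjusted p between 0.00532 and 0.0285), and Polr2m, a regulator bound to the polymerase, had -0.46 (adjusted p = 0.0208). The calls of Polr2i, Polr2e and Polr2m were lost without Sirt6 cKO replicate 1 or 2, and those of Polr2i and Polr2e also without Sirt6 cKO replicate 3.

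Of the subunits common to the 3 polymerases, 4 were tested, and Polr2h was among the genes outside the rows used. Polr2e and Polr2f fell, and Polr2l and Polr2k did not pass the test, with log2 fold changes of -0.20 and 0.39. Polr2k had 5.77, 4.51 and 5.22 CPM in WT and 5.79, 7.32 and 7.19 CPM in Sirt6 cKO. All Sirt6 cKO samples were above WT, the first of them only just (adjusted p = 0.139, edgeR). The annotation holds a pseudogene copy of Polr2k, and at 5.17 ± 0.64 CPM it was the gene of the set with the lowest WT mean.

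RNA polymerase III was represented by 7 genes, with 1 lower, 1 higher and a median log2 fold change of 0.03. Polr3k (chr2:181864337-181870830, plus strand), a small subunit that acts in RNA cleavage and termination, had 66.4, 56.4 and 57.1 CPM in WT and 43.1, 45.2 and 27.1 CPM in Sirt6 cKO. These did not overlap, and the log2 fold change was -0.64 ± 0.20 (adjusted p = 0.0279, edgeR). The call was lost without WT replicate 3 (adjusted p = 0.055), without Sirt6 cKO replicate 3 (0.0538) and with upper-quartile factors (0.055). Polr3b (chr10:84622437-84727177, plus strand), the second largest subunit, had 41.5, 52.2 and 54.4 CPM in WT and 60.1, 59.6 and 58.6 CPM in Sirt6 cKO. Every Sirt6 cKO sample was above every WT sample, but the log2 fold change of 0.27 ± 0.14 did not pass the test (adjusted p = 0.151, edgeR).

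Polr3gl (chr3:96577872-96594181, minus strand) was the only gene of the 64 that rose, and it rose in each of the alternatives run. It encodes a subunit found in RNA polymerase III of most cell types, and its paralog Polr3g, known from stem and tumor cells, was not analysed here. Polr3gl had 15.7, 14.1 and 13.8 CPM in WT and 27.7, 24.8 and 20.4 CPM in Sirt6 cKO. The genotypes did not overlap, and the log2 fold change was 0.74 ± 0.16 (adjusted p = 0.0062, edgeR), a 1.67-fold increase. The other Pol III genes, Polr3d, Polr3c, Polr3f and Polr3e, had log2 fold changes of -0.29, -0.29, 0.03 and 0.30 and did not pass the test. Whether the Pol II and Pol III genes differ in their response was not tested.

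**Figure D3:**
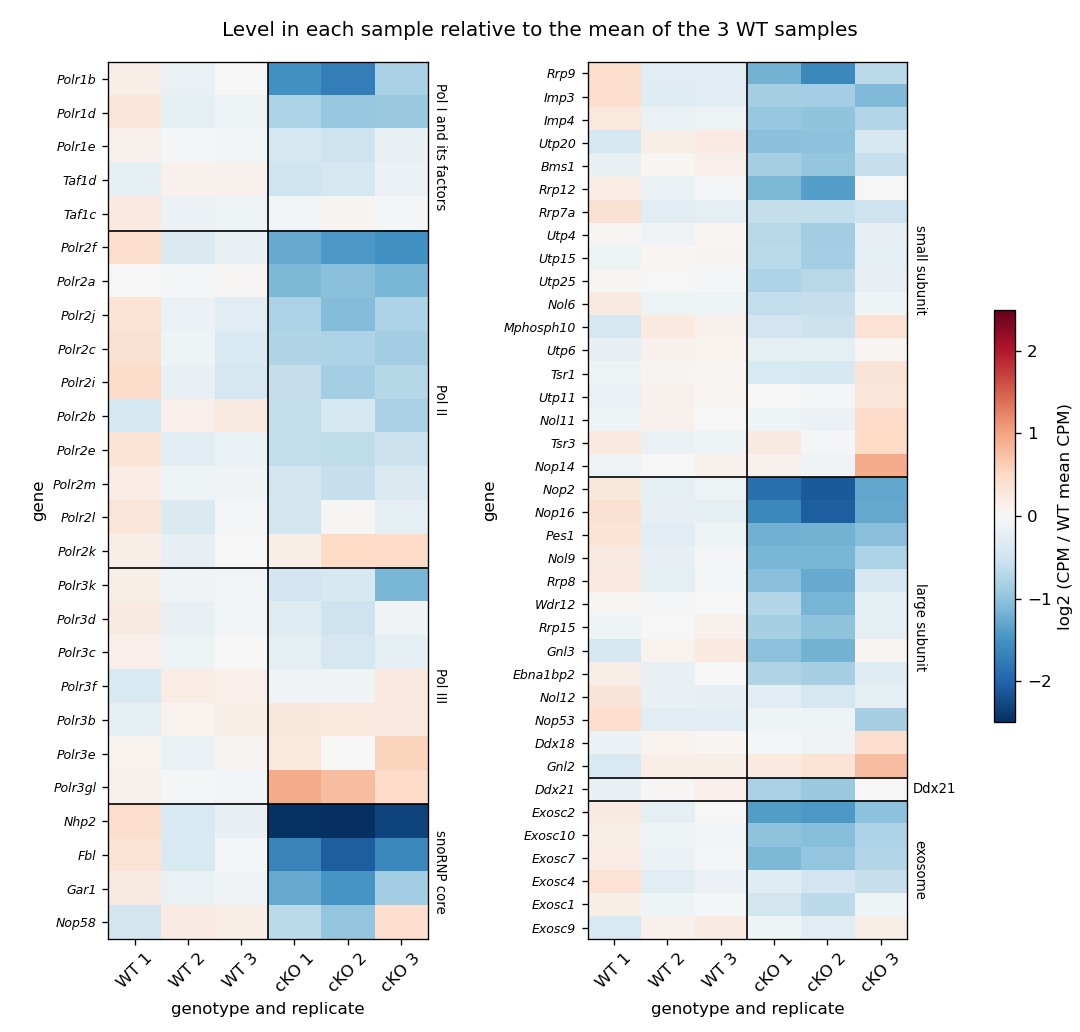
Log2 ratio of the CPM in each sample to the WT mean for the 64 genes, with WT and Sirt6 cKO replicates in columns, genes in rows by role, blue for below and red for above the WT mean. Most rows turn blue in Sirt6 cKO replicates 1 and 2, and in the small and large subunit groups Sirt6 cKO replicate 3 is paler, whereas the Pol II rows are alike in the 3 Sirt6 cKO samples.

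The 3 Sirt6 cKO samples were not alike in these genes. The median log2 ratio of the 64 genes to their WT mean was -0.63 and -0.74 in Sirt6 cKO replicates 1 and 2 and -0.25 in replicate 3, while in WT replicates 1, 2 and 3 it was 0.16, -0.13 and -0.05. Summed over the 64 genes, the level was 7191, 6362 and 6657 CPM in WT and 4086, 3864 and 5180 CPM in Sirt6 cKO. Sirt6 cKO replicate 3 was thus the closest of its genotype to WT, though below each WT sample. It was the highest of the Sirt6 cKO samples in 48 of the 64 genes, against 39.8% of all genes tested.

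The groups differed in this count, without a test of the difference. Sirt6 cKO replicate 3 was the highest of its genotype in 17 of 18 small subunit genes, 12 of 13 large subunit genes, 4 of 4 snoRNP core genes and 5 of 6 exosome genes, and in 3 of 5 Pol I genes, 3 of 7 Pol III genes and 3 of 10 Pol II genes. The log2 ratio of this sample to the mean of the other Sirt6 cKO samples had a median of 0.49 over the 42 genes that are no polymerase subunit or initiation factor, of 0.29 over the Pol I genes, of 0.09 over the Pol III genes, of -0.02 over the Pol II genes, and of -0.01 over all genes tested. Among the polymerase genes it was highest in Polr1b, with 0.81. It was largest in Rrp12, Nop58, Gnl3, Nop14 and Ddx21, with 1.26, 1.23, 1.14, 0.92 and 0.88, and lowest in Nop53 and Polr3k, with -0.72 and -0.71. Rrp12, Gnl3, Nop14 and Ddx21 are named here because their values stood out.

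Rrp12, an export factor of both ribosomal subunits, had 155, 122 and 133 CPM in WT and 62.6, 52.3 and 137 CPM in Sirt6 cKO. Replicate 3 was within the WT range and the other Sirt6 cKO samples were far below it, and the log2 fold change was -0.70 ± 0.33 (adjusted p = 0.108, edgeR, and 0.01 with the replicate block). Without Sirt6 cKO replicate 3 it was -1.23 (adjusted p = 0.00293). Gnl3, a nucleolar GTPase, had 60.7, 85.6 and 96.0 CPM in WT and 39.8, 35.8 and 83.1 CPM in Sirt6 cKO, and its log2 fold change moved from -0.61 (adjusted p = 0.143, and 0.0103 with the replicate block) to -1.08 without replicate 3 (adjusted p = 0.0103).

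For Ddx21 the log2 fold change without Sirt6 cKO replicate 3 was -0.85 (adjusted p = 0.00538). Nop14, a processome factor, had 55.2, 60.8 and 65.1 CPM in WT and 64.7, 56.5 and 114 CPM in Sirt6 cKO, so that only replicate 3 left the WT range by a wide margin. The log2 fold change, 0.38 in all samples (adjusted p = 0.236), became 0.02 without that sample (adjusted p = 0.913). With Sirt6 cKO replicate 3 left out, 36 of the 64 genes fell, and 2254 of all genes tested, against 34 and 2736 with all samples. Of the 35 genes called with all samples, 5 were then lost (Polr2b, Polr2e, Polr2i, Polr3k and Rrp7a), and 7 were gained (Ddx21, Exosc1, Gnl3, Nol6, Nop58, Polr1e and Rrp12).

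**Figure D4:**
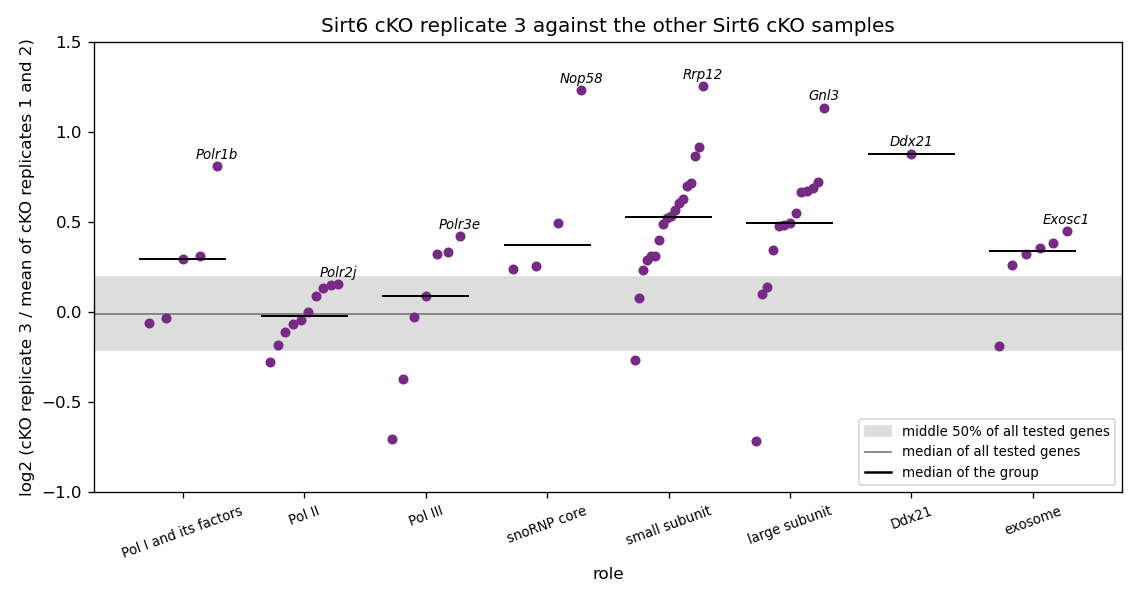
Log2 ratio of the CPM of Sirt6 cKO replicate 3 to the mean of Sirt6 cKO replicates 1 and 2 for each of the 64 genes by role, with a line at each group's median, the gene with the highest ratio named, and a grey band for the middle 50% of all genes tested, from -0.21 to 0.20. Most small and large subunit genes lie above the band, and most Pol II genes lie inside it.

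WT replicate 1 deviated in another way. It was the highest WT sample in 42 of the 64 genes (65.6%, against 50.5% of all genes tested) and the lowest in 20 (31.2%, against 40.3% of all genes tested). Across the 64 genes, its log2 ratio to the other WT samples had a Spearman rho of -0.516 with exon length, and across 11175 genes with counts in every sample rho was -0.239. Some genes with little exon sequence were relatively high in this sample, such as Imp3, Nhp2 and Polr2f, with log2 ratios of 0.71, 0.73 and 0.71, and some long ones such as Utp20 low, with -0.62. Others went the other way, such as Nop58 and Gnl3 with 1976 and 1883 bases (-0.64 and -0.58) and Rrp7a with 5411 bases (0.63). These correlations are across genes of the same samples, which are not independent. Without WT replicate 1, 35 of the 64 genes fell, and 3139 of all genes tested, against 2736 with all samples. All 35 calls made with all samples were kept, Taf1d was gained, and 9 genes instead of 12 fell by more than 2-fold. The log2 fold change of Nhp2 was then -2.19 (adjusted p = 4.59e-06).

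Levels and changes were related within the set, as they were in the table as a whole. Per length, the WT level had a median of 24.96 CPM per kb of exon and ran from 4.88 (Polr2l) to 204 (Polr2f), with Nhp2 (191), Polr2m (152), Nop53 (145), Nop2 (118) and Nop58 (107) next in order. Across the 64 genes, the WT level per kb and the log2 fold change had a Spearman rho of -0.577, and across all 11246 genes tested rho was -0.393. Both measures use the same WT samples, so they are not independent. Of the 32 genes with exons shorter than the median of 3048 bases, 19 fell, 9 of them by more than 2-fold, and of the 32 longer genes 15 fell, 3 by more than 2-fold. Over all genes tested, 26.2% of those shorter than this length fell, 8.21% by more than 2-fold, and 22.8% of those longer, 6.31% by more than 2-fold.

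Of the 64 genes, 28 overlap another gene in the annotation, which leaves the origin of part of their reads uncertain. Gnl3, Nop58, Tsr1 and Nop53 hold snoRNA genes within their span, Snord19 and Snord69 in Gnl3, Snord91a in Tsr1 and Snord23 in Nop53. None of these 4 genes passed the test in the main fit with all samples, and their log2 fold changes were -0.61, -0.27, -0.11 and -0.32 for Gnl3, Nop58, Tsr1 and Nop53. Gnl3 passed with the replicate block, and Gnl3 and Nop58 passed without Sirt6 cKO replicate 3. With WT replicate 1 and Sirt6 cKO replicate 3 both left out, all 4 passed, with Nop53 higher in Sirt6 cKO.

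Other genes of the same pathway, which the name patterns do not cover, were listed by hand, and 66 of the 107 names stood in the same rows and were tested. Of these, 37 fell (56.1%, against 24.3% of all genes tested) and 1 rose (1.52%, against 22.5%), 11 fell by more than 2-fold (7.15% of all genes tested), and the median log2 fold change was -0.53. Without Sirt6 cKO replicate 1, and likewise without Sirt6 cKO replicate 2, 24 fell (1927 and 1903 of all genes tested, against 2736 with all samples). The largest decreases were in Ruvbl1, Mrto4 and Nolc1. Ruvbl1, an ATPase of snoRNP assembly among other complexes, had 49.1, 31.3 and 33.6 CPM in WT and 9.86, 9.98 and 13.3 CPM in Sirt6 cKO. It fell by 1.78 ± 0.22 on the log2 scale (adjusted p = 0.000358, edgeR), without overlap.

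Mrto4, an assembly factor of the large subunit stalk, had 81.0, 43.0 and 50.7 CPM in WT and 15.8, 14.1 and 24.5 CPM in Sirt6 cKO. Nolc1, a chaperone of snoRNPs, had 352, 318 and 319 CPM in WT and 95.8, 102 and 148 CPM in Sirt6 cKO. Neither overlapped between genotypes, and their log2 fold changes were -1.68 ± 0.29 and -1.52 ± 0.18 (adjusted p = 0.00186 and 0.00031, edgeR). The only increase was in Rrnad1, with 20.4, 23.2 and 23.6 CPM in WT and 30.9, 32.6 and 28.5 CPM in Sirt6 cKO. Its log2 fold change of 0.45 ± 0.14 had an adjusted p of 0.026, and no longer passed the test without WT replicates 2 or 3 or Sirt6 cKO replicates 1 or 2.

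This list also holds 3 subunits of RNA polymerase I under their older symbols, singled out after their values were seen. Cd3eap fell by 1.08 on the log2 scale (adjusted p = 0.00229) and Znrd1 by 0.53 (adjusted p = 0.0402), while Twistnb was at 0.25 (adjusted p = 0.347). As in the set itself, Sirt6 cKO replicate 3 was the highest Sirt6 cKO sample in most of these genes, 52 of 66 (78.8%, against 39.8% of all genes tested).

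The ribosomal proteins, which are the cargo of this pathway, were tested as 35 genes in the same rows. Of these 22 fell (62.9%, against 24.3% of all genes tested), 4 by more than 2-fold, 0 rose, and the median log2 fold change was -0.64. Sirt6 cKO replicate 3 was the lowest Sirt6 cKO sample in 22 of the 35 (62.9%, against 41.5% of all genes tested), and WT replicate 1 the highest WT sample in 34 (97.1%, against 50.5%).

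Of 13 symbols listed for the Myc network, a transcription factor family known to regulate ribosome production, 6 were tested and Myc itself was not among them. Of the 6, 1 fell and 1 rose (16.7% each, against 24.3% and 22.5% of all genes tested). Mycn had 7.56, 6.34 and 6.38 CPM in WT and 0.0685, 0.200 and 0 CPM in Sirt6 cKO, that is 2, 6 and 0 reads. It was far below WT in each Sirt6 cKO sample. Since Mycn passed the filter on low counts through its WT reads alone, no weight is put on its p-value. Mxd1, a repressor of the same network, had 9.89, 9.32 and 10.4 CPM in WT and 17.9, 20.8 and 12.3 CPM in Sirt6 cKO, without overlap. It rose by 0.79 on the log2 scale (adjusted p = 0.0144). Zbtb17 (also listed under its older symbol Miz1), Mlx, Mnt and Mlxip had log2 fold changes of -0.44, -0.05, 0.02 and 0.31 and did not pass the test.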

How the data were processed

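RNA-seq was measured in 3 WT and 3 Sirt6 cKO samples. The authors deposited raw read counts per Ensembl gene with exon positions and summed exon length, in the layout of featureCounts, without normalization. The submitters' processing notes name cutadapt, HISAT2 2.0.5, StringTie and the human build hg19, although the gene identifiers are those of mouse and the positions match GRCm38. The counter, the annotation, the strand setting and how genes were picked for the table are not given in the sources used here. The labels and the study's methods name different library kits and sequencers.

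Symbols came from RefSeq (GRCm38.p6), by position, for rows that shared 0.5 or more of their span with a RefSeq gene, which named 10609 of 11659 genes. Only rows in a low and a middle range of identifier numbers were used for the members and lists (6621 rows, 56.8%). The Spearman rho of exon length and mean count was 0.247 and 0.292 in the ranges, -0.003 between them and 0.372 above them, and the median count percentile of ribosomal protein genes was 71.1 and 76.5 in the ranges (11 and 24 genes), 64.5 between them (3 genes) and 31.1 above them (30 genes). The block above the ranges was low in only 1 of these measures. The block between them was below the ranges in both, but its percentile rests on 3 genes. Whether labels and counts line up in the excluded blocks is therefore not settled. All rows entered the fit.

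The genotypes were compared in edgeR 4.0.16 (R 4.3.3, TMM, filterByExpr, glmQLFit, glmQLFTest, genotype as the only term), with Benjamini-Hochberg adjustment over 11246 genes, and 413 genes were filtered out. A gene was called at an adjusted p under 0.05, and the fold threshold was 2. Standard errors were taken as the log2 fold change over the square root of F. An exact permutation test of 3 against 3 cannot go below 0.1 and was not used. Totals of 25726958 to 30156935 counts gave 11016 to 11229 genes with at least 10 counts per sample.

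Deviations from the group means correlated at 0.262, 0.104 and 0.136 between same-numbered samples of both genotypes, and at -0.227 to 0.062 between differently numbered ones. These correlations are not independent, since deviations cancel out within a genotype, and whether the samples are paired was not tested. A fit with the replicate number as a block was added. This pairing rests on the numbers in the labels, and no shared litter or batch is stated. Counts of replicates differed by more than sampling noise, with a chi-square per degree of freedom of 5.38 to 135, so no library was counted as deposited again. Alternatives were RLE and upper-quartile factors, total counts, no filter, a minimum of 10 counts in all samples, the block, rows in the ranges alone, leaving out each sample, limma-voom (limma 3.58.1), DESeq2 1.42.0 and an adjusted p under 0.01. Leaving out WT replicate 1 and Sirt6 cKO replicate 3 together was added after the data were seen.

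The members, the roles and the lists (other ribosome biogenesis factors, Myc network, ribosomal proteins, cell type markers, proliferation) were chosen with earlier results of these data known. Values by sample are given for a set list of polymerase, snoRNP, PeBoW and exosome genes, for the largest called change in each direction per role, for every called change over 2-fold, and for the 3 largest called changes in each direction among the other factors. Genes named beyond this were chosen after their values were seen.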

Additional observations from a re-analysis of the deposited data

How the results depend on the processing

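The count of genes that fell, 34 with all samples, was 31 to 38 under RLE, upper-quartile and total-count scaling, both other filters, the replicate block, the rows in the identifier ranges alone, limma-voom and DESeq2, 18 at an adjusted p under 0.01, 48 with WT replicate 1 and Sirt6 cKO replicate 3 both left out, and 21 to 36 with 1 sample left out, the lowest without Sirt6 cKO replicate 1. Over all genes tested, 2736 fell with all samples, and 2332 to 2868 under the other scalings, filters, block and programs. Among the rows in the ranges alone, 1736 fell. The all-gene count was 1628 at an adjusted p under 0.01, 3769 with both samples left out and 1903 to 3139 with 1 sample left out. Of the 64 genes, the count that rose, 1, was 2 with upper-quartile factors and 2 with the replicate block (Gnl2 in addition), 3 with both samples left out, and 1 to 1 with 1 sample left out. Genes lower by more than 2-fold numbered 9 to 18 with 1 sample left out and 11 to 13 otherwise, and the median log2 fold change lay between -0.71 and -0.45. Of the other ribosome biogenesis factors, 24 to 43 fell with 1 sample left out, 22 at an adjusted p under 0.01 and 56 with both samples left out, and 0 to 1 rose with 1 sample left out and 0 at an adjusted p under 0.01. The replicate block lost none of the 35 calls and gained Ddx21, Exosc4, Gnl2, Gnl3 and Rrp12. The log2 fold change of Taf1c, -0.01, was 0.003 with RLE factors, 0.072 with upper-quartile factors, 0.052 with total counts, 0.006 with a minimum of 10 counts in all samples, 0.005 with the replicate block, 0.01 with limma-voom, 0.003 with DESeq2, 0.166 with both samples left out and -0.066 to 0.136 with 1 sample left out. Apart from the stricter threshold, the cause of these changes was not tested. No called gene of the 64 was called in the opposite direction under any of the 17 alternatives, and no scaling moved the median of all genes by more than 0.08. Each of the 64 genes had at least 133 reads in every sample, and the effect of depth on the calls was not tested.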
